A study of Mus musculus with 9 samples.

Results

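The oligodendrocyte lineage was described through 37 genes, chosen by name and sorted into 3 stages of maturation: 4 precursor genes (Pdgfra, Cspg4, Olig1 and Olig2), 3 genes of committed cells (Gpr17, Bcas1 and Enpp6) and 30 genes of myelinating cells. A gene's stage is the list it was placed in and need not be the only stage that uses it. Sox10, listed as myelinating, is used through the whole lineage. Of these, 36 were measured, among 18193 genes on the array, and all 36 were among the 13959 genes that passed the filter on low values. The cut-off of that filter, a mean of 2.146, lay at the lowest value of the arrays. Genes near that value on all arrays therefore stayed in, and the shares given for all genes include them. Trf, the iron carrier transferrin, was not analysed here because its probe set also carries another gene's symbol. RNA came from whole pieces of spinal cord of 3 mice at postnatal day 6 of the GAD65-GFP genotype, a reporter line whose green fluorescence comes from the promoter of a GABA-synthesising enzyme. Every group shared this age and genotype. Each animal gave a ventral, an intermediate and a dorsal piece, so that 9 arrays fell into 3 regions with n = 3 each, and no label mentions sorted cells. The series asks about dystonia-associated genes in spinal inhibitory circuits, and its design sets the 3 regions side by side.

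Oligodendrocytes wrap axons of the central nervous system in myelin. They descend from dividing precursor cells that carry the growth factor receptor PDGFRA and the proteoglycan NG2, leave the cell cycle as committed cells, and then switch on the genes for myelin proteins and lipids. In the spinal cord most precursors arise from the ventral ventricular zone and spread outwards, a smaller number arise dorsally, and myelination proceeds during the days after birth.

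Values were read as log2 expression with a floor of 2.15, at which each array held 36% to 36.3% of its probe sets, and array medians ran from 3.66 to 3.75. Arrays of 1 region correlated across probe sets at 0.998 or more. The regional labels were set against known markers. Tac1, the substance P precursor gene of dorsal horn neurons, lay at 8.65 to 8.74 in ventral, 11.63 to 11.84 in intermediate and 12.43 to 12.57 in dorsal pieces, and the dorsal horn factor Lmx1b lay at 2.53, 3.70 to 4.54 and 7.63 to 7.94 in the same order of regions. Of the motor neuron genes, Chat and Slc5a7 stood at the floor on all 9 arrays, while Mnx1 lay at 2.30 to 3.19 in ventral pieces and at the floor elsewhere. Isl1, also used outside motor neurons, lay at 6.50 to 7.21 in ventral, 6.67 to 7.47 in intermediate and 2.15 to 2.76 in dorsal pieces, so it did not separate ventral from intermediate pieces. In whole tissue, fewer cells of a type and less RNA per cell cannot be told apart, which holds for every level below.

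Most lineage genes were higher in ventral than in dorsal cord. The intermediate level stood near the midpoint in the 4 precursor genes and nearer the dorsal level in most other members. That contrast between the stages was not tested. In the comparison of ventral with dorsal pieces, 34 of 36 genes were called higher and 1 lower (limma, Benjamini-Hochberg adjusted p under 0.05), against 28.2% of all tested genes called higher and 24.5% called lower. The median difference was 1.59 on the log2 scale, against 0 over all genes, and 27 of the 36 were called higher by at least 2-fold, against 6.5% of all genes. In the comparison of ventral with intermediate pieces, 34 of 36 were called higher and 0 lower, against 24.9% and 23.4% of all genes, with a median of 1.40, and 26 were called higher by at least 2-fold, against 4.52%. In the comparison of intermediate with dorsal pieces, 9 were called higher and 1 lower, against 15.9% and 14.2% of all genes, and the median difference was 0.16. The 9 became 4 without animal 1, 4 without animal 2, 5 without animal 3 and 5 without the dorsal array of animal 3. The F test over the 3 regions called 34 members, against 58% of all genes. These pairwise comparisons share arrays, so their counts are not independent of each other. The same shares of all genes are the background for the counts of every list below.

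**Figure D1:**
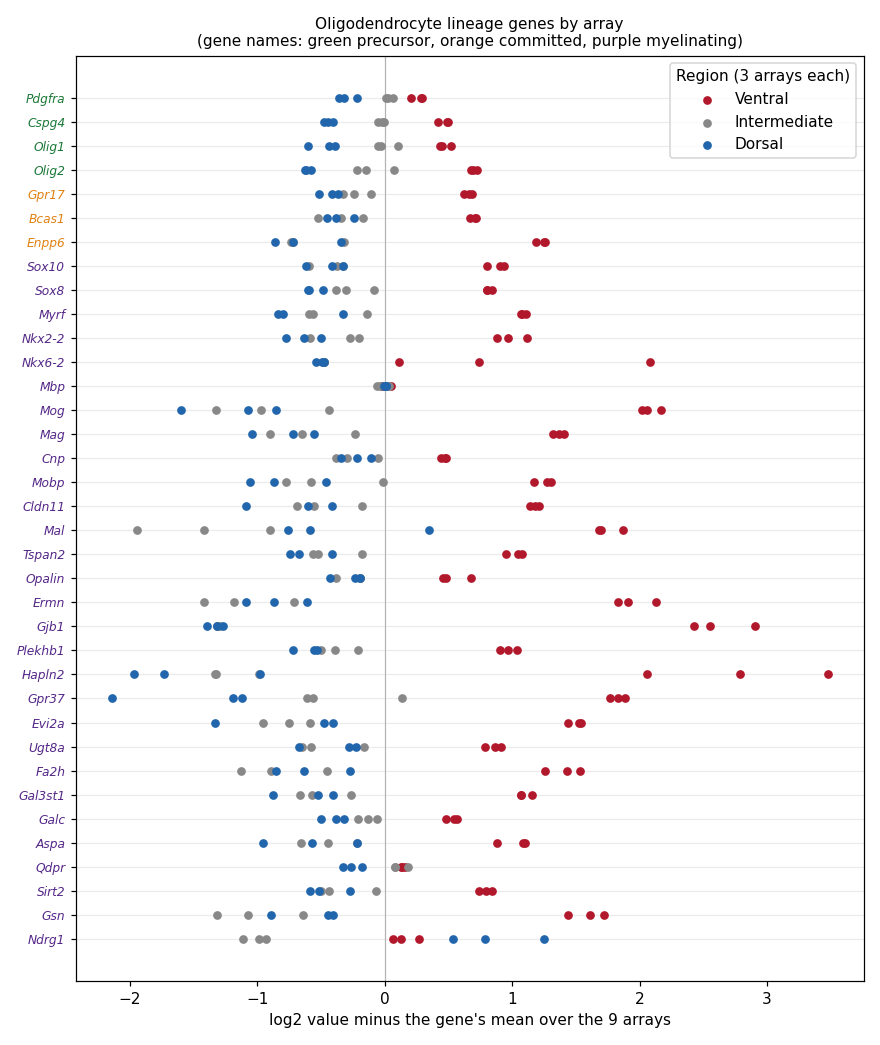
Each row is a gene and each point 1 array, placed by its log2 value minus the gene's mean over the 9 arrays (ventral red, intermediate grey, dorsal blue, 3 arrays each). In 34 of 36 genes the lowest ventral point lies above the highest dorsal point, while intermediate and dorsal points overlap in 24 genes.

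The groups did not overlap in most genes. The lowest ventral array lay above the highest dorsal array in 34 of 36 genes, against 32.5% of all tested genes, and above the highest intermediate array in 34, against 30%. The lowest intermediate array lay above the highest dorsal array in 10 genes, against 22.3% of all genes. These 10 comprised 4 of 4 precursor, 1 of 3 committed and 5 of 29 myelinating genes.

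The precursor genes were graded through the regions, with the intermediate level between the others. All 4 were called higher in ventral than in dorsal, in intermediate than in dorsal, and in ventral than in intermediate pieces, with median differences of 0.92, 0.45 and 0.48 log2 units. The intermediate minus dorsal difference made up 39.5% to 58.9% of the ventral minus dorsal difference. Intermediate levels differed by -0.14 to 0.05 from the midpoint of ventral and dorsal, and 0 of 4 were called off it (limma adjusted p between 0.175 and 0.869). Without the intermediate array of animal 3, Olig2 was called below it (-0.23, adjusted p = 0.0193).

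Pdgfra encodes the receptor through which platelet-derived growth factor keeps precursors dividing. Its log2 values were 12.13, 12.22 and 12.21 in ventral, 11.94, 11.95 and 11.99 in intermediate, and 11.57, 11.61 and 11.71 in dorsal pieces. All ventral arrays lay above all intermediate arrays, and those above all dorsal arrays. Ventral exceeded dorsal by 0.56 ± 0.03 (SE, adjusted p = 0.000134 by limma), a 1.47-fold difference, intermediate exceeded dorsal by 0.33 ± 0.03 (adjusted p = 0.00177) and ventral exceeded intermediate by 0.23 ± 0.03 (adjusted p = 0.00235).

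Cspg4 encodes NG2, the surface proteoglycan of precursors. It stood at 8.16, 8.23 and 8.24 in ventral, 7.72, 7.69 and 7.74 in intermediate, and 7.30, 7.27 and 7.34 in dorsal pieces, again with no overlap between any regions. Its ventral minus dorsal difference was 0.91 ± 0.02 (limma adjusted p = 3.97e-05), and intermediate minus dorsal was 0.42 ± 0.02 (adjusted p = 0.000755). A dimmer probe set of Cspg4, at a mean of 6.57, gave 0.52 and 0.26 for these differences. Both genes are also used outside the lineage. Pdgfra is known in meningeal fibroblasts, whose summed marker level (log2 of the sum of 10 genes) ran from 14.09 to 14.53 in ventral, 11.61 to 11.95 in intermediate and 13.67 to 14.77 in dorsal pieces. Their part in the Pdgfra gradient was not tested. Of those 10 genes, 2 were called higher and 0 lower in ventral than in dorsal pieces, and 0 higher and 8 lower in intermediate pieces than in dorsal ones. Cspg4 is known in mural cells of vessels, whose 9 markers summed to 13.63 to 13.73 in ventral, 12.95 to 13.10 in intermediate and 12.56 to 12.87 in dorsal pieces, with 7 called higher and 0 lower in ventral than in dorsal pieces and Anpep at the floor on all arrays. Their part in the Cspg4 gradient was not tested.

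Olig1 and Olig2 encode paired helix-loop-helix factors that specify the lineage, and Olig2 also marks the motor neuron progenitor domain. Olig1 lay at 13.00, 13.02 and 13.09 in ventral, 12.52, 12.54 and 12.67 in intermediate, and 11.97, 12.13 and 12.18 in dorsal pieces. Ventral exceeded dorsal by 0.94 ± 0.03 (limma adjusted p = 7.23e-05) and intermediate exceeded dorsal by 0.48 ± 0.03 (adjusted p = 0.00123). Olig2 lay at 11.37, 11.40 and 11.35 in ventral, 10.46, 10.53 and 10.75 in intermediate, and 10.10, 10.05 and 10.06 in dorsal pieces, and it was the only precursor gene past 2-fold, at 2.48-fold higher in ventral than in dorsal pieces (adjusted p = 0.0002). Both genes kept the 3 regions apart on every array. The intermediate minus dorsal call of Olig2, 0.52 ± 0.07 (adjusted p = 0.00826), was lost without animal 1 (adjusted p = 0.06) or animal 2 (adjusted p = 0.0891).

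**Figure D2:**
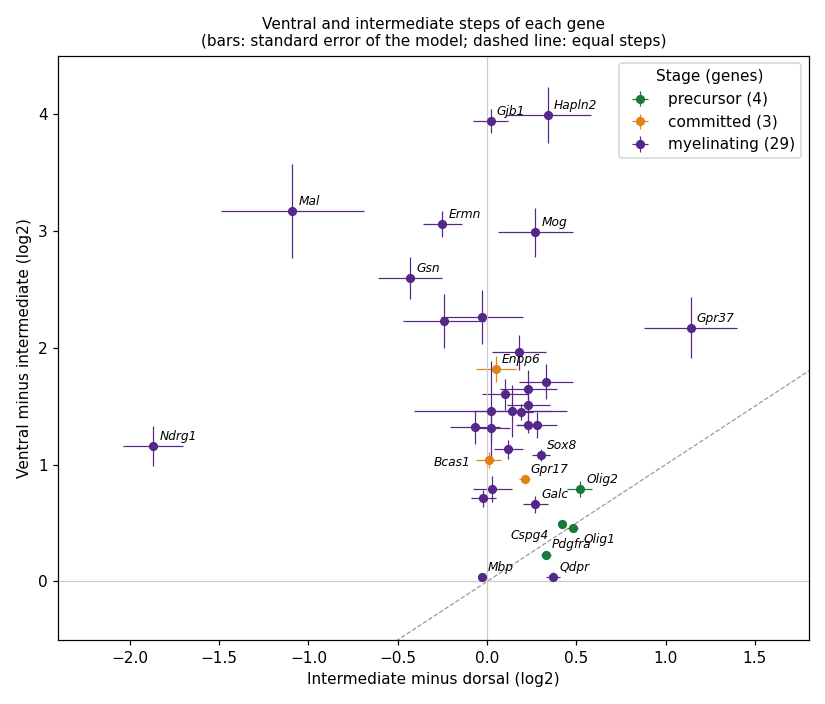
The horizontal axis gives intermediate minus dorsal and the vertical axis ventral minus intermediate, both as log2 differences with the standard error of the model as bars, for 4 precursor, 3 committed and 29 myelinating genes. Precursor genes lie near the dashed line of equal steps, and most others lie near 0 on the horizontal axis and high on the vertical axis, with Qdpr, Gpr37, Mal, Ndrg1 and Mbp away from the main column.

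The genes of committed cells were higher in ventral pieces, and their intermediate level stood close to the dorsal one. All 3 were called higher in ventral than in dorsal and than in intermediate pieces, with medians of 1.09 and 1.04, while 1 of 3 was called higher in intermediate pieces than in dorsal ones, with a median of 0.05. All 3 were called below the midpoint of ventral and dorsal, with differences of -0.88 to -0.33 (limma adjusted p 0.00215 to 0.0041). That call was lost for Enpp6 without animal 1 (adjusted p = 0.0668) and for Bcas1 without animal 3 (adjusted p = 0.0518). The intermediate position was 1.15%, 2.89% and 19.4% of the way up from dorsal to ventral, below the lowest of the precursor genes at 39.5%.

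Gpr17, a receptor that marks newly committed cells and is shut off again before myelination, stood at 11.90, 11.94 and 11.96 in ventral, 10.95, 11.04 and 11.17 in intermediate, and 10.76, 10.86 and 10.91 in dorsal pieces. It was the committed gene with a called intermediate minus dorsal difference, 0.21 ± 0.03 (limma adjusted p = 0.0111), a call that was lost without any 1 of the 3 animals (adjusted p 0.0606 to 0.0998). Ventral exceeded dorsal by 1.09 ± 0.03 (adjusted p = 5.04e-05).

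Bcas1, a protein of early myelinating cells, lay at 13.25, 13.29 and 13.30 in ventral, 12.06, 12.24 and 12.41 in intermediate, and 12.20, 12.13 and 12.34 in dorsal pieces. Enpp6, a choline phosphodiesterase of newly formed oligodendrocytes, lay at 10.29, 10.35 and 10.36 in ventral, 8.37, 8.38 and 8.78 in intermediate, and 8.38, 8.24 and 8.76 in dorsal pieces. In both genes the ventral arrays stood apart from the rest and the intermediate and dorsal arrays overlapped. Ventral exceeded dorsal 2.08-fold for Bcas1 (limma adjusted p = 0.000287) and 3.66-fold for Enpp6 (adjusted p = 0.000197), while intermediate minus dorsal was 0.01 ± 0.07 for Bcas1 (adjusted p = 0.993) and 0.05 ± 0.11 for Enpp6 (adjusted p = 0.796).

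The 29 measured myelinating genes followed the committed genes, with larger differences and more exceptions. In ventral against dorsal pieces 27 were called higher, 1 lower and 1 was not called, with a median of 1.63. In ventral against intermediate pieces 27 were called higher and 0 lower, with a median of 1.46. In intermediate against dorsal pieces 4 were called higher and 1 lower, against 15.9% and 14.2% of all genes, with a median of 0.12. In the 27 genes called higher, the intermediate position ranged from -52.2% (Mal) to 91.2% (Qdpr), with a median of 8.18%. Without the 5 transcription factors the remaining 24 genes gave 22 higher and 1 lower in ventral against dorsal pieces, with a median of 1.78.

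Tested against the midpoint of ventral and dorsal, the intermediate region was called lower in 27 of 36 members and higher in 1, against 17.9% and 18.8% of all genes, with a median of -0.64. The 27 comprised 0 of 4 precursor, 3 of 3 committed and 24 of 29 myelinating genes. The count rested on having 3 animals: it was 11 without animal 1, 16 without animal 2 and 9 without animal 3. No test compared the stages with each other, since the genes of a stage are not replicates.

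Of the 5 transcription factors, 5 were called higher in ventral than in dorsal pieces, against 28.2% of all genes. In intermediate pieces 1 was called higher than in dorsal ones, against 15.9%. Sox10, a factor used through the whole lineage and required for myelin gene expression, lay at 11.08, 11.21 and 11.18 in ventral, 9.68, 9.90 and 9.95 in intermediate, and 9.95, 9.66 and 9.86 in dorsal pieces, a 2.52-fold ventral excess over dorsal (limma adjusted p = 0.000518). Its intermediate and dorsal arrays overlapped (difference 0.02 ± 0.11, adjusted p = 0.986). Sox8, its close relative, lay at 10.74, 10.74 and 10.78 in ventral, 9.55, 9.63 and 9.85 in intermediate, and 9.33, 9.34 and 9.45 in dorsal pieces, with no overlap.

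Sox8 was 2.60-fold higher in ventral than in dorsal pieces (limma adjusted p = 7.36e-05). Its intermediate excess over dorsal was 0.30 ± 0.05 (adjusted p = 0.0136), and that call was lost without animal 1 (adjusted p = 0.0687), without animal 2 (adjusted p = 0.123), without the dorsal array of animal 2 (adjusted p = 0.0511) and without that of animal 3 (adjusted p = 0.0623). Myrf, the factor that switches precursors to myelin gene expression, lay at 10.50, 10.46 and 10.47 in ventral, 8.80, 8.83 and 9.25 in intermediate, and 8.59, 8.55 and 9.06 in dorsal pieces, 3.35-fold higher in ventral than in dorsal pieces (adjusted p = 0.000329). Its ventral arrays were nearly identical to each other, while the other regions varied between animals and were highest in animal 3.

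Nkx2-2, a homeodomain factor of the ventral neural tube and of differentiating oligodendrocytes, lay at 9.22, 9.46 and 9.31 in ventral, 7.76, 8.07 and 8.14 in intermediate, and 7.71, 7.57 and 7.84 in dorsal pieces, with ventral 3.08-fold above dorsal (limma adjusted p = 0.000315). Nkx6-2, which is linked to the arrangement of paranodal myelin, lay at 2.80, 3.43 and 4.77 in ventral pieces and within 0.2 of the floor elsewhere. It was low on all arrays and spread widely over the ventral ones. Its fitted difference from dorsal was 1.48 ± 0.43 (adjusted p = 0.0392), with 0.65, 1.23 and 2.56 in animals 1, 2 and 3 and 0.94 without animal 3. It was a call lost in 12 alternatives, among them leaving out animal 1 (adjusted p = 0.0742), animal 2 (adjusted p = 0.194) or animal 3 (adjusted p = 0.0683).

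Of the 15 genes for structural, junctional and surface proteins of myelin and its cells, 14 were called higher in ventral than in dorsal pieces, with a median of 2.08, and 1 in intermediate pieces than in dorsal ones. Mog, a glycoprotein of the outermost myelin surface that appears late in maturation, lay at 13.18, 13.22 and 13.33 in ventral, 9.84, 10.19 and 10.72 in intermediate, and 10.09, 9.56 and 10.31 in dorsal pieces. The ventral excess over dorsal was 3.26 ± 0.21, or 9.56-fold (limma adjusted p = 0.000267), with intermediate and dorsal arrays overlapping (0.27 ± 0.21, adjusted p = 0.416). Mog, Ermn, Gjb1, Hapln2 and Gpr37 had the 5 largest fitted ventral minus dorsal differences among the probe sets used.

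Ermn, the cytoskeletal protein ermin of late oligodendrocytes, lay at 11.82, 11.90 and 12.12 in ventral, 8.57, 8.81 and 9.28 in intermediate, and 9.12, 8.90 and 9.38 in dorsal pieces, 7.02-fold higher in ventral than in dorsal pieces (limma adjusted p = 8.9e-05). Hapln2, a link protein of the matrix at nodes of Ranvier, lay at 6.51, 7.24 and 7.93 in ventral, 3.12, 3.13 and 3.47 in intermediate, and 2.72, 2.49 and 3.48 in dorsal pieces. Its ventral excess over dorsal was 20.1-fold (difference 4.33 ± 0.24, adjusted p = 0.000193). That fold rests on low dorsal values, against a floor of 2.15, and a second probe set of Hapln2 stood at the floor on all arrays.

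Gjb1, the gap junction protein connexin 32, lay at 6.47, 5.99 and 6.11 in ventral pieces, against 2.25, 2.25 and 2.27 in intermediate and 2.29, 2.17 and 2.25 in dorsal pieces. Both of the lower regions were within 0.2 of the floor. The fitted ventral minus dorsal difference was 3.95 ± 0.1, or 15.5-fold (limma adjusted p = 3.73e-05), and a second probe set of Gjb1 gave 3.52. Gpr37, a receptor of maturing oligodendrocytes, lay at 10.49, 10.55 and 10.61 in ventral, 8.16, 8.11 and 8.86 in intermediate, and 7.60, 6.58 and 7.53 in dorsal pieces.

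Gpr37 was the one member at least 2-fold higher in intermediate pieces than in dorsal ones, by 1.14 ± 0.26 (limma adjusted p = 0.0321). That call was lost in 12 alternatives, without animal 1 (adjusted p = 0.0894), animal 2 (adjusted p = 0.12) and animal 3 (adjusted p = 0.217) among them. Its ventral excess over dorsal was 9.90-fold (adjusted p = 0.000491), and the dorsal array of animal 2 was the lowest of the 9.

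The other myelin protein genes repeated the ventral step. Mag, an adhesion molecule facing the axon, was 4.40-fold higher in ventral than in dorsal pieces (limma adjusted p = 0.000346). Mobp, a basic protein of compact myelin, was 4.11-fold higher, with 14.50, 14.60 and 14.63 in ventral, 12.55, 12.75 and 13.31 in intermediate, and 12.46, 12.27 and 12.87 in dorsal pieces. Cldn11, the tight junction protein of myelin, was 3.66-fold higher, Tspan2, a tetraspanin of early myelin, 3.10-fold, Plekhb1 2.97-fold and Evi2a 4.69-fold. Opalin, a membrane protein of the paranodal loops, was measured at 5.01, 5.23 and 5.03 in ventral, 4.17, 4.36 and 4.36 in intermediate, and 4.36, 4.12 and 4.32 in dorsal pieces, and was 1.77-fold higher in ventral than in dorsal pieces (adjusted p = 0.00248). Its ventral minus intermediate call was lost without animal 3 (adjusted p = 0.0539).

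Cnp, an enzyme of uncompacted myelin, lay at 15.07, 15.11 and 15.10 in ventral, 14.25, 14.33 and 14.58 in intermediate, and 14.41, 14.29 and 14.52 in dorsal pieces, a difference of 0.69 ± 0.07 between ventral and dorsal (limma adjusted p = 0.00122). Dimmer probe sets of Cnp gave 1.67 at a mean of 11.67 and 1.87 at a mean of 10.19. Mbp, the main basic protein of compact myelin, was the one member not called in ventral against dorsal pieces. It lay at 15.97, 15.94 and 16.01 in ventral, 15.92, 15.90 and 15.99 in intermediate, and 15.95, 15.97 and 15.97 in dorsal pieces, with all regions overlapping and a difference of 0.01 ± 0.02 (adjusted p = 0.72).

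The Mbp probe set used was the 3rd brightest of 45037, near the highest value in the table, 16.27. Other probe sets of Mbp gave ventral minus dorsal differences of 0.28 at a mean of 15.57, 0.39 at 14.89, 0.17 at 14.74, 0.42 at 14.56 and 2.16 at 11.19. One more gave -0.73 at a mean of 8.45, and the dimmest gave 0.96 at 3.87. With the most variable probe set in place of the brightest, Mbp was called higher in ventral than in dorsal pieces (limma adjusted p = 0.000984). Across the members, 24 further single-symbol probe sets of 12 genes had a mean of at least 6. In ventral minus dorsal, 23 of them had the sign of the one used. Signs of intermediate minus dorsal were not counted and could differ, as in Ermn (0.35, against -0.25 in the one used). The exception in ventral minus dorsal was the Mbp probe set at -0.73.

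**Figure D3:**
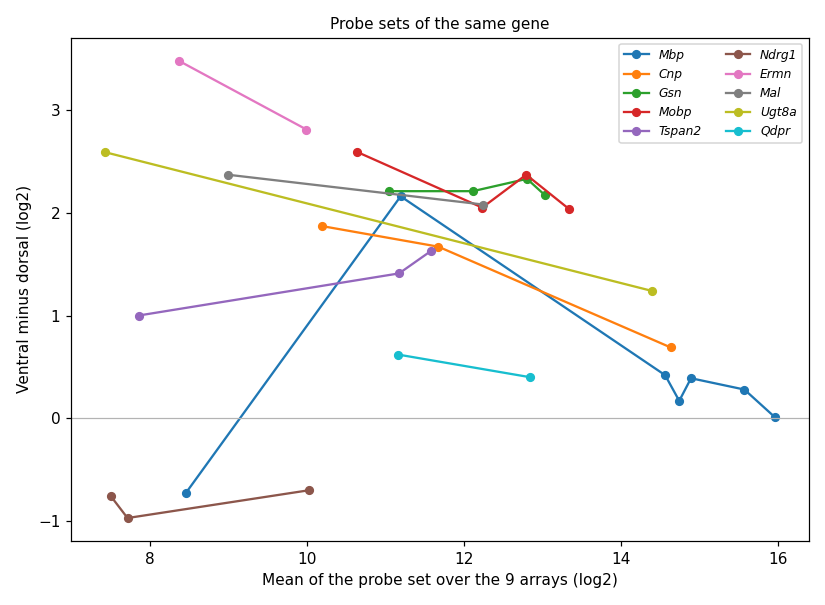
Each point is 1 probe set with a mean of at least 6, lines join probe sets of a gene, the horizontal axis is the mean log2 value over the 9 arrays and the vertical axis the ventral minus dorsal difference. Cspg4 and Sox10, which also had several such probe sets, are not shown. The Mbp differences lie between 0.01 and 0.42 at means of 14.56 and above and reach 2.16 at a mean of 11.19, and all Ndrg1 points lie below 0.

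Mal, a lipid raft protein that sorts myelin components, stood out among the myelin protein genes by its low intermediate level. It lay at 13.94, 13.92 and 14.11 in ventral, 10.30, 10.82 and 11.34 in intermediate, and 12.59, 11.48 and 11.65 in dorsal pieces. The dorsal array of animal 1 was the highest dorsal one, and no intermediate array reached any dorsal array. Ventral exceeded dorsal by 2.08 ± 0.40 (limma adjusted p = 0.0102), a call that was lost without animal 2 (adjusted p = 0.12) or animal 3 (adjusted p = 0.0905), while intermediate minus dorsal was -1.09 ± 0.40 (adjusted p = 0.114).

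Schwann cells, the myelinating cells of nerve roots, also express Mal, Gjb1, Mag, Mbp, Sox10 and Ndrg1. Of 11 Schwann cell markers 8 were measured, and their summed level (log2 of the sum) ran from 12.76 to 13.30 in ventral, 9.19 to 9.88 in intermediate and 12.25 to 14.25 in dorsal pieces. Of the 8, 1 was called higher and 1 lower in ventral than in dorsal pieces, against 28.2% and 24.5% of all genes. In intermediate pieces 0 were called higher and 5 lower than in dorsal ones, against 15.9% and 14.2%. In ventral pieces 4 were called higher and 0 lower than in intermediate ones, against 24.9% and 23.4%. The dorsal array of animal 1 was the highest of the 9 in Pmp22 (13.93), Egr2 (10.53) and Ncmap (9.47), and close to the highest in Pmp2 (10.29, against 10.31 in the ventral array of animal 1). In Cdh19 it lay at 6.77, below the ventral arrays at 7.52 to 7.64, in Drp2 it was the lowest dorsal array (8.20), and Foxd3 stayed near the floor. The part of Schwann cells in the values of these members was not tested. Without that array, 33 members were called higher and 1 lower in ventral than in dorsal pieces, and 10 higher and 1 lower in intermediate pieces than in dorsal ones.

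Of the 7 enzymes of myelin lipid and of metabolism, 7 were called higher in ventral than in dorsal pieces, with a median of 1.25, 6 in ventral than in intermediate pieces and 2 in intermediate pieces than in dorsal ones. Ugt8a, which makes galactosylceramide, lay at 15.17, 15.25 and 15.30 in ventral, 13.74, 13.81 and 14.22 in intermediate, and 14.16, 13.71 and 14.11 in dorsal pieces, 2.37-fold higher in ventral than in dorsal pieces (limma adjusted p = 0.00153). Fa2h, which hydroxylates its fatty acids, was 3.98-fold higher (adjusted p = 0.00173), and Gal3st1, which sulfates it to sulfatide, 3.24-fold higher (adjusted p = 0.000456). A dimmer probe set of Ugt8a gave a ventral minus dorsal difference of 2.59 at a mean of 7.42, against 1.24 at 14.39 in the one used.

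Galc, the lysosomal enzyme that degrades galactosylceramide, was 1.91-fold higher in ventral than in dorsal pieces (limma adjusted p = 0.000351) and 1.20-fold higher in intermediate pieces than in dorsal ones (adjusted p = 0.0382), the second a call lost in 12 alternatives. Aspa, which splits N-acetylaspartate into acetate for lipid synthesis, was 3.04-fold higher in ventral than in dorsal pieces (adjusted p = 0.00288), a call lost without animal 3 (adjusted p = 0.0599). Sirt2, a deacetylase abundant in myelin, was 2.39-fold higher (adjusted p = 0.000241).

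Qdpr, which recycles the cofactor tetrahydrobiopterin, placed its step elsewhere. It lay at 12.97, 12.98 and 13.00 in ventral, 12.92, 12.92 and 13.02 in intermediate, and 12.51, 12.66 and 12.58 in dorsal pieces, so that ventral and intermediate arrays overlapped and both stood above all dorsal arrays. Ventral exceeded dorsal by 0.40 ± 0.04 (limma adjusted p = 0.00114), intermediate exceeded dorsal by 0.37 ± 0.04 (adjusted p = 0.00408), and ventral minus intermediate was 0.04 ± 0.04 (adjusted p = 0.55). Qdpr was the one member called above the midpoint (0.17 ± 0.04, adjusted p = 0.0228), a call lost in 9 alternatives. Its intermediate minus dorsal call was lost without animal 1 (adjusted p = 0.0687) or animal 3 (adjusted p = 0.079).

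Gsn, the actin-severing protein gelsolin, was 4.49-fold higher in ventral than in dorsal pieces (limma adjusted p = 0.000532). It is also known in fibroblasts, whose summed levels are given above. Its values were 14.47, 14.64 and 14.75 in ventral, 11.72, 11.96 and 12.39 in intermediate, and 12.63, 12.14 and 12.59 in dorsal pieces.

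Ndrg1, a cytoplasmic protein needed for myelin maintenance in peripheral nerve, ran against the other members. It lay at 10.29, 10.15 and 10.09 in ventral, 8.91, 9.09 and 9.04 in intermediate, and 11.27, 10.81 and 10.56 in dorsal pieces, with the 3 regions apart and dorsal the highest. Its ventral minus dorsal difference was -0.70 ± 0.17 (limma adjusted p = 0.0207), its intermediate minus dorsal difference -1.87 ± 0.17 (adjusted p = 0.00216) and its ventral minus intermediate difference 1.16 ± 0.17 (adjusted p = 0.00427). The ventral minus dorsal call was lost in 6 alternatives (adjusted p 0.0593 to 0.147), those without animal 2, animal 3, the dorsal array of animal 2 or any 1 ventral array. The Schwann cell sums were likewise lowest in intermediate pieces, with ventral and dorsal ranges that overlapped.

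In most myelinating genes the animals differed more in intermediate and dorsal pieces than in ventral ones. Nkx6-2, Hapln2 and Gjb1 were among the exceptions, with their widest spread over the ventral arrays. The intermediate array of animal 3 was the highest intermediate array in 33 of 36 members, against 36.2% of all genes, and the dorsal array of animal 2 was the lowest dorsal array in 27 of 36, against 22.2%. For the myelinating genes the median deviation from the gene mean ran from 0.95 to 1.10 over the ventral arrays, from -0.65 to -0.21 over the intermediate arrays and from -0.77 to -0.48 over the dorsal arrays. For the precursor genes it ran from 0.42 to 0.51, from -0.04 to 0.07 and from -0.51 to -0.39 in the same order of regions. Intermediate and dorsal ranges of the myelinating genes thus overlapped, and those of the precursor genes did not.

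**Figure D4:**
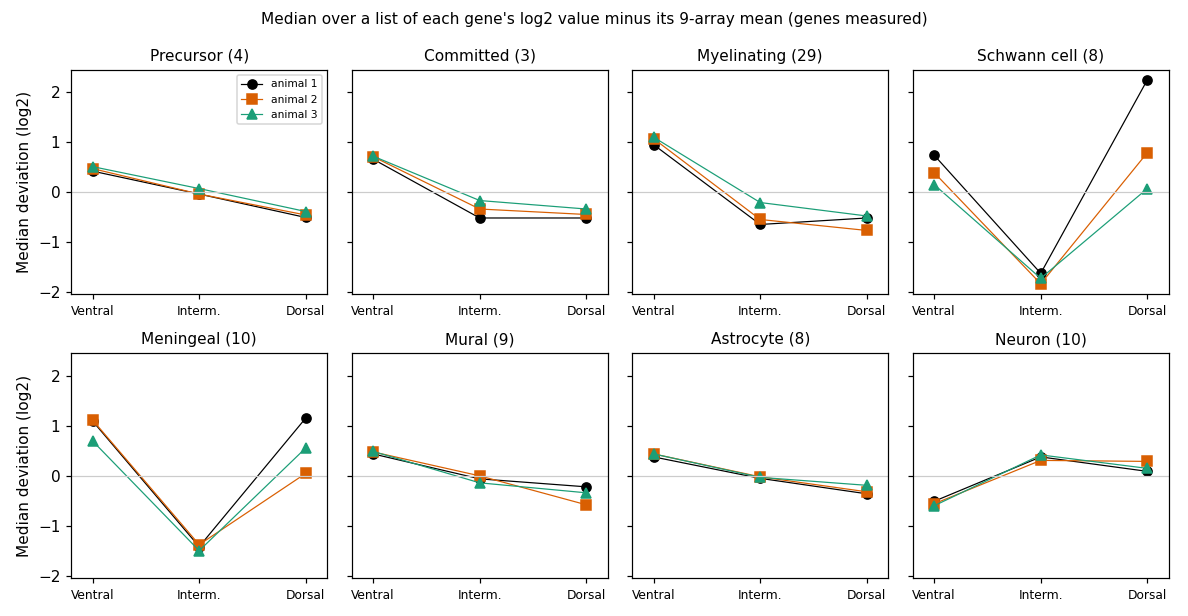
Each panel gives, per array, the median over a gene list of the log2 value minus the gene's mean over the 9 arrays, with lines joining the regions of an animal (ventral, intermediate, dorsal from left to right). Precursor medians lie between 0.42 and 0.51 in ventral, -0.04 and 0.07 in intermediate and -0.51 and -0.39 in dorsal pieces, whereas myelinating medians drop to between -0.65 and -0.21 in intermediate pieces, and the Schwann cell and meningeal lists have their minimum there.

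Lists of other cell types were read beside these. As lists, the astrocyte and mural markers were also graded from ventral through intermediate to dorsal pieces, as the precursor genes were. Median deviations of the astrocyte list ran from 0.38 to 0.44, -0.05 to -0.02 and -0.36 to -0.19 in that order. Those of the mural list ran from 0.44 to 0.49, -0.14 to 0 and -0.58 to -0.22. All 8 astrocyte markers were called higher in ventral than in dorsal pieces, with a median of 0.70, and their summed level ran from 17.05 to 17.08 in ventral, 16.63 to 16.72 in intermediate and 16.33 to 16.47 in dorsal pieces. In intermediate pieces 2 of the 8 were called above and 3 below the midpoint of ventral and dorsal. Of the 9 mural markers, 0 were called above and 3 below it, against 18.8% and 17.9% of all genes. In intermediate against dorsal pieces, 5 astrocyte markers were called higher and 1 lower, and 4 mural markers higher and 1 lower. Of 10 neuronal markers, 1 was called higher and 8 lower in ventral than in dorsal pieces, with a median of -0.70, and their sums ran from 15.87 to 15.91 in ventral, 16.41 to 16.53 in intermediate and 16.16 to 16.34 in dorsal pieces. All 10 neuronal markers were called above the midpoint in intermediate pieces, while 6 of 8 Schwann cell and 9 of 10 meningeal markers were called below it, as were 27 of 36 lineage genes. The neuronal sums were lowest where most lineage genes were highest. Whether the makeup of the pieces accounts for the gene levels was not tested.

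Further genes of the same stages were read beside the members. Of 12 further precursor genes 11 were measured. In ventral against dorsal pieces 5 were called higher and 2 lower, against 28.2% and 24.5% of all genes, with a median of 0.54. The largest differences were in Sox6, a factor that holds precursors undifferentiated (1.28 ± 0.10, limma adjusted p = 0.000432), Tnr, the matrix glycoprotein tenascin-R (1.27 ± 0.06, adjusted p = 0.000119), and Vcan, the proteoglycan versican (1.20 ± 0.06, adjusted p = 0.00014). In intermediate against dorsal pieces 5 were called higher and 1 lower, against 15.9% and 14.2% of all genes, with a median of 0.32.

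Versican lay at 11.00, 11.04 and 11.03 in ventral, 9.79, 9.73 and 9.87 in intermediate, and 9.94, 9.69 and 9.84 in dorsal pieces. Its intermediate level was called below the midpoint (-0.63 ± 0.05, limma adjusted p = 0.0019). Sox6 at -0.11 ± 0.08 (adjusted p = 0.393) and Tnr at -0.16 ± 0.05 (adjusted p = 0.0702) were not called off the midpoint. Of the 11 further precursor genes, 3 were called above and 2 below the midpoint, against 18.8% and 17.9% of all genes.

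Of 8 further genes of committed cells 6 were measured, and all 6 were called higher in ventral than in dorsal pieces, with a median of 1.45. They included Bmp4, a growth factor made by newly committed cells (1.69 ± 0.17, limma adjusted p = 0.00113), Cnksr3 (1.68 ± 0.13, adjusted p = 0.000474) and the small GTPase gene Rras2 (1.49 ± 0.07, adjusted p = 0.000121). In intermediate against dorsal pieces 2 of 6 were called higher, with a median of 0.13, and all 6 were called below the midpoint.

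Of 27 further myelin genes 24 were measured, with 22 called higher and 0 lower in ventral than in dorsal pieces and a median of 1.72. The largest differences were in the membrane protein gene Tmem125 (3.24 ± 0.20, limma adjusted p = 0.000239), Ppp1r14a, an inhibitor of myosin phosphatase (3.15 ± 0.12, adjusted p = 7.46e-05), and the cytoskeletal gene Anln (2.61 ± 0.12, adjusted p = 0.00012). In intermediate against dorsal pieces 3 were called higher and 2 lower, against 15.9% and 14.2% of all genes, with a median of 0.01. Against the midpoint, 17 of 24 were called below and 2 above it.

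Of 15 regulators of the lineage 14 were measured. In ventral against dorsal pieces 9 were called higher and 3 lower, against 28.2% and 24.5% of all genes, with a median of 0.60. Sox9, a factor of glial progenitors and astrocytes, was higher by 1.22 ± 0.31 (limma adjusted p = 0.0246), and Jag1, a Notch ligand, by 1.07 ± 0.10 (adjusted p = 0.000858). Hes5, a Notch target that represses differentiation, was lower: it lay at 9.26, 9.24 and 9.14 in ventral, 9.91, 9.95 and 9.91 in intermediate, and 10.34, 10.30 and 10.30 in dorsal pieces, a difference of -1.10 ± 0.03 (adjusted p = 3.93e-05). All regions were apart, with dorsal the highest, and the intermediate level was called above the midpoint (0.16 ± 0.02, adjusted p = 0.00929).

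Promoter sequences of the members, whatever their pattern, were examined for binding motifs of factors that were themselves members. A RefSeq table on GRCm38.p6 held 27 of the 37 genes in 38 windows, each the 250 bases before a gene's start. The Sox motif (ACAAAG or ACAATG, both strands) occurred in 16 of 38 windows, against 25.2% of all 32851 windows, and the Myrf motif (CTGGNAC, both strands) in 10 of 38, against 16.1%. All 10 windows with the Myrf motif belonged to 8 myelinating genes, which held 34 of the windows, against 3 precursor windows and 1 committed window with 0 matches, too few to compare. The helix-loop-helix motif of the kind Olig factors bind (CAGNTG, both strands) occurred in 20 of 38 windows, against 44.8%. Some genes had several windows, so matches may be counted more than once. By gene, the Sox motif occurred in 13 of 27, the Myrf motif in 8 and the helix-loop-helix motif in 17. No share by gene was computed over all genes. Matches to different motifs could share bases within a window, and a match is a description of letters, not a binding site.

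The 6 windows below were chosen after their matches were seen, to set 4 myelinating genes called higher in ventral pieces (Mobp, Hapln2, Ermn and Mog) beside 2 precursor genes (Olig2 and Cspg4). Capitals mark matches to the Sox and Myrf motifs, and each sequence is the gene's sense strand, 5′ to 3′. Mobp (chr9:120149492-120149741, plus strand) held 6 Sox matches and 0 Myrf matches, Hapln2 (chr3:88027512-88027761, minus strand) 1 of each, Ermn (chr2:58052865-58053114, minus strand) 1 Sox match, Mog (chr17:37023399-37023648, minus strand) 1 Myrf match, Olig2 (chr16:91225300-91225549, plus strand) 1 Sox match and Cspg4 (chr9:56864854-56865103, plus strand) 0 of both.
Mobp: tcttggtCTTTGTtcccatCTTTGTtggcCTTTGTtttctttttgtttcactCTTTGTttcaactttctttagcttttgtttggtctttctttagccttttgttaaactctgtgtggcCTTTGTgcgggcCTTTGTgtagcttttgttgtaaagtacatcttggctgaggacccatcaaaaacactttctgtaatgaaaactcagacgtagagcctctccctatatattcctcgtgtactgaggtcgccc
Hapln2: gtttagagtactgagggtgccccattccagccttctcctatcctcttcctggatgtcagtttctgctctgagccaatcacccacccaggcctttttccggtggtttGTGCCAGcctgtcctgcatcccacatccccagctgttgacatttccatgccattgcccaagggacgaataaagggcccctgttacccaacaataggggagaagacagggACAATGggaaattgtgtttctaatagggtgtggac
Ermn: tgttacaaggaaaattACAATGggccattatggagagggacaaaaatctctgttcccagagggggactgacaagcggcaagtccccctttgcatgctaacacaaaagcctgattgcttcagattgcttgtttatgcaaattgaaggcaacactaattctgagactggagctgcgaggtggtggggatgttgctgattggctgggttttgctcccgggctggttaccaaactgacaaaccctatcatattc
Mog: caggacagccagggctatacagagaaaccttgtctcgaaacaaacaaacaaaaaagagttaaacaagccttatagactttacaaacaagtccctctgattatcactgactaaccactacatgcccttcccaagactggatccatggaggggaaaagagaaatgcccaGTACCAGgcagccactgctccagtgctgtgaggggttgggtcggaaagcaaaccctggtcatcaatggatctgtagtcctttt
Olig2: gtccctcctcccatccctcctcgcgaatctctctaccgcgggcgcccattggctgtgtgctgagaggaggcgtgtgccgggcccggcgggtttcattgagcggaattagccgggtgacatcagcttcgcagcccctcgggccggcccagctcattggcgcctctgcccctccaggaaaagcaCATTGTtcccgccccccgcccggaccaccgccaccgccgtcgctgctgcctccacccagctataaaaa
Cspg4: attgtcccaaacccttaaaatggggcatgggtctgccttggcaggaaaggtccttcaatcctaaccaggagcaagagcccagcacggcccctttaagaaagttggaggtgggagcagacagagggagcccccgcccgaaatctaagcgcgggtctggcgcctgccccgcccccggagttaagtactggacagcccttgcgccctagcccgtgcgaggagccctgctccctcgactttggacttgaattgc
The Mobp window repeats the reverse complement of the Sox motif, while the Mog and Hapln2 windows hold the reverse complement of the Myrf motif. Of the windows shown, Olig2, Mobp, Hapln2 and Ermn held the Sox motif.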

How the data were processed

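RNA from 9 pieces of spinal cord was hybridised to Affymetrix 3' expression arrays. The authors deposited 1 value per probe set and array, between 2.15 and 16.27, and these deposited values were read as log2 because of that range. The authors' summarisation, normalisation and floor are not given in the sources used here, and every fold change rests on the log2 reading. Probe sets were named from the platform annotation. Of 45037 probe sets, 34945 had 1 symbol, 932 had several and 9160 had none. A gene table held 34741 of the single-symbol ones and changed 0 names. For each of 18193 genes the brightest probe set with 1 symbol was used. A filter at the 30th percentile of probe set means, 2.146, took out 4234 genes and left 13959.

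Region and animal (as a fixed block) were fitted to all 9 arrays with limma 3.58.1 in R 4.3.3, with eBayes (prior degrees of freedom 0.749, residual degrees of freedom 4). P-values are two-sided, adjusted over all 13959 genes (Benjamini-Hochberg), with calls at 0.05. The animal comes from the array titles. Correlations of deviations from the region means were -0.066 to 0.246 within animals (mean 0.081, 9 pairs) and, between animals, -0.18 to 0.161 (mean -0.041, 18 pairs). The number of arrays limits the precision.

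The members, their stages, the gene lists and the tests were chosen with earlier results of these data known. All 37 members may be named. From each further list of lineage genes, the 3 called genes with the largest ventral minus dorsal difference are named, and genes of the other cell type lists are named beside results they move with. The contrast of the intermediate region with the midpoint of the others, and the choice of promoters to print, were added after seeing the data. The fit was tested on simulated data. Alternatives covered the animal block, the filter, the scaling, the probe set of a gene, the variance estimate, tied values, the arrays in the fit, and leaving out each array or animal. Promoter windows came from a RefSeq table on GRCm38.p6. Figures were drawn with Python 3.11.15 and matplotlib 3.10.9, and the R package data.table was version 1.17.8.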

Additional observations from a re-analysis of the deposited data

How the results depend on the processing

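Of the called members, 31 of 35 in ventral against dorsal pieces and 30 of 34 in ventral against intermediate pieces kept their call and direction in every alternative run, 4 of 10 in intermediate against dorsal pieces did so, and 4 of 28 against the midpoint did so (Ermn, Gjb1, Gpr17 and Ndrg1). The lost calls were those of Nkx6-2, Mal, Aspa, Ndrg1 and Opalin named above for ventral pieces, and of Olig2, Gpr17, Sox8, Gpr37, Galc and Qdpr for intermediate against dorsal pieces. Against the midpoint, the other 24 calls were each lost in 1 to 14 alternatives (highest adjusted p 0.216, for Aspa without animal 3). The 9 members called higher in intermediate than in dorsal pieces numbered 5 when only the arrays of those regions were fitted, and 12 when arrays were centred on their median, which moved the median of all genes by 0.07 and the share of higher among all calls to 67.7%, against 52.8% as deposited. The 1 member called lower there became 2 with a mean of at least 6 or with the most variable probe set, and 3 among genes with 9 distinct values. The 1 member above the midpoint became 0 with the most variable probe set. It was also 0 among genes with 9 distinct values, but Qdpr has 8 and was not tested there. Leaving out 1 array or animal gave 0 to 1 members lower in ventral than in dorsal pieces, 4 to 10 higher in intermediate than in dorsal pieces (5 without the dorsal array of animal 3), 0 to 1 above the midpoint and 9 to 27 below it. Without the replicate block for the animal, 34 were called higher and 1 lower in ventral against dorsal pieces, 9 higher and 1 lower in intermediate against dorsal pieces, 34 and 0 in ventral against intermediate pieces, and 28 below the midpoint. The causes of these changes were not tested. Mbp lay near the top of the range of values. Outside ventral pieces Gjb1 and Nkx6-2 lay near its floor, and Hapln2 was low. How far this bounds the differences of these genes was not tested.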
